A study of Rattus norvegicus with 18 samples.

Results

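The 46 genes described here make up the extracellular side of Wnt signalling in rat muscle: the Wnt ligands, their receptors, the secreted proteins that block them, and Axin2. They were chosen by symbol from the 30560 rows of the count table. The choice covers 19 Wnt genes, 9 Frizzled genes (Fzd2 to Fzd10), the co-receptors Lrp5 and Lrp6 with the receptor kinases Ror1 and Ror2, the 4 R-spondins, 9 secreted inhibitors (Sfrp1, Sfrp2, Sfrp4, Sfrp5, Frzb, Dkk2, Dkk3, Dkk4 and Wif1), and Axin2.

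Bulk RNA was sequenced from the rat tibialis anterior, a shin muscle of mostly fast fibres, giving 18 libraries. The 9-month groups were wild type (WT, 3 libraries), the genotype label DMD, a model of Duchenne muscular dystrophy (3 libraries), and the label p16-null DMD (6 libraries). Both dystrophic groups carry the DMD genotype, and the labels describe neither the Dmd allele nor the p16 edit. Age was compared in WT muscle only, with 3 libraries at 3 months and 3 at 18 months. Nothing beyond the titles says that libraries of a group came from separate animals, and p-values then measure only the spread between these libraries, which may be technical.

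Wnt proteins are secreted lipid-modified ligands that bind a Frizzled receptor together with Lrp5 or Lrp6, which stops the Axin and Gsk3 complex from destroying beta-catenin, so that beta-catenin reaches TCF/LEF factors in the nucleus. Other Wnts act through Frizzled, Ror or Ryk receptors without beta-catenin, on cell polarity and calcium. Sfrp proteins, Frzb and Wif1 bind Wnts outside the cell, whereas Dkk proteins other than Dkk3 act at Lrp5 and Lrp6. In muscle the pathway is known for its part in satellite cell activation and differentiation, in the neuromuscular junction and in the fibrogenic response of connective tissue cells.

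Levels of a gene in different libraries are given as CPM, the usual counts scaled to a common library size, here by TMM, a method that assumes most genes do not change. Levels of different genes are compared in TPM, which corrects for transcript length. A change is a log2 fold change with its standard error (SE), and a gene passed the test where the Benjamini-Hochberg adjusted p of edgeR's quasi-likelihood test over all genes tested was under 0.05. Total counts ranged from 9607819 to 21992631 per library. Dmd, the gene for dystrophin, stood at 113 to 167 CPM in WT muscle of 9 months, at 31.2 to 44.7 CPM with the DMD label and at 30.9 to 54.2 CPM with the p16-null DMD label. Cdkn2a, which encodes p16 and a second protein, stood at 0 to 0.183, 10.6 to 19.5 and 10.1 to 15.3 CPM in the same groups. Gene-level counts pool both products of Cdkn2a, so they do not check the p16-null label. The muscle fibre markers summed to 151440 to 167290 CPM in WT muscle at 9 months, and none of the 12 was at 0.

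Promoter sequence is shown for 3 members on which the results turn: Sfrp2, with the largest rise at 9 months, Fzd7, with a fall that was also called by library totals, and Axin2, the feedback target of beta-catenin that is commonly read as a gauge of the pathway. The sequences come from RefSeq for build GRCr8, whereas the counts were made on mRatBN7.2, and 31 of the 46 members matched an entry by symbol. Each runs 5′ to 3′ on the plus strand, from 250 bases before to 50 bases after the annotated start. Capitals mark the TCF/LEF core motif, searched on both strands in 4 forms. Those with A before the last base were CTTTGAA and, as the other one, CTTTGAT. Those with T before the last base were CTTTGTA and, as the other one, CTTTGTT.
Axin2, chr10:94398535-94398834: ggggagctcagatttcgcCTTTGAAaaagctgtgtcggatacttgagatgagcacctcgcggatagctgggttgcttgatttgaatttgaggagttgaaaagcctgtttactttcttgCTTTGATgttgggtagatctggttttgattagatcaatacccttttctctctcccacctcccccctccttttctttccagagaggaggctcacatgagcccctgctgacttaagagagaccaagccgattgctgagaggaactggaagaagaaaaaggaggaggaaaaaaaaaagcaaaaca
Fzd7, chr9:68425288-68425587: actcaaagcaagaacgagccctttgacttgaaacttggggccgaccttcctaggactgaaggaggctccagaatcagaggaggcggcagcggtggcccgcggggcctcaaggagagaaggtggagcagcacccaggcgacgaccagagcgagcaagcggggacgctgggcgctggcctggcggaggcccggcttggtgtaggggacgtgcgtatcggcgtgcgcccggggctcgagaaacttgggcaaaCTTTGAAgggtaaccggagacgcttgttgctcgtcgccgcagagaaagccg
Sfrp2, chr2:171387286-171387585: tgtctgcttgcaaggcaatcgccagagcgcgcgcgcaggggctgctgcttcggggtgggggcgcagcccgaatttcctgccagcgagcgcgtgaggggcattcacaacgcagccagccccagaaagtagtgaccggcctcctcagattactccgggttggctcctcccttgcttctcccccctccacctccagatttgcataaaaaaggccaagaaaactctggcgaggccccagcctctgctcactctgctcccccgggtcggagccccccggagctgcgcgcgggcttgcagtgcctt
The Axin2 window held 2 matches, whose first bases lie at positions -232 and -132 from the annotated start. The Fzd7 window held 1 match, which begins at position -1 and runs over the start, and the Sfrp2 window held none. Of all 33469 promoters of this length, 17.1% held at least 1 match, and 5 of the 31 members did (16.1%): the others were Sfrp5, Wnt3 and Wnt8a. The members' promoters were richer in G and C, with a median of 66.7% against 51.7% over all promoters. A match describes letters in a window and is not evidence of binding.

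In resting WT muscle at 9 months the most abundant members were 2 Frizzled receptors. Fzd4, which also serves as the receptor of the non-Wnt ligand Norrin in blood vessels, led with 42.7 ± 15.5 TPM (SD, n = 3), followed by Fzd7 with 20.01 ± 2.74 TPM and the ligand Wnt9a with 10.4 ± 2.04 TPM. Lrp6 (8.53 ± 0.511 TPM), Lrp5 (7.10 ± 0.768 TPM) and Wnt4 (6.24 ± 3.07 TPM) came next. The libraries of Lrp6 overlapped those of Wnt9a, and those of Wnt4 (3.60 to 9.61 TPM) overlapped all 3 others, whereas Lrp5 lay below Lrp6 and Wnt9a in every library. In DMD muscle of the same age 3 secreted inhibitors took the top places: Sfrp2 with 109 ± 65.2 TPM, Sfrp4 with 79.4 ± 27.2 TPM and Sfrp1 with 47.9 ± 11.6 TPM, ahead of Fzd4 with 38.7 ± 14.3 TPM. The order within this top group is not settled by the data, because the DMD libraries spread from 52.0 to 180 TPM for Sfrp2 and from 60.65 to 110.5 TPM for Sfrp4.

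Summed over each role, the balance between inhibitors and ligands differed between the healthy and the dystrophic groups. The 9 secreted inhibitors together reached 19.2 to 28.7 TPM in 9-month WT, 175 to 339 TPM in DMD and 213 to 480 TPM in p16-null muscle, without overlap between WT and either dystrophic group. The 19 ligands together reached 16.1 to 31.5, 20.8 to 29.1 and 19.7 to 42.1 TPM, and these ranges overlapped. Sfrp1, Sfrp2 and Sfrp4 made up 29.5 to 50.3% of the inhibitor total in 9-month WT libraries. Their share was 84.4 to 89.96% in DMD muscle and 88.3 to 93.5% where p16 was also labelled null. In WT muscle the inhibitor total was 19.3 to 27.0 TPM at 3 months and 33.0 to 60.7 TPM at 18 months, and the share of those 3 Sfrp genes was 38.6 to 53.5% and 63.97 to 74.95%. These sums are descriptions, were not tested, and like all TPM values carry no TMM scaling.

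**Figure D1:**
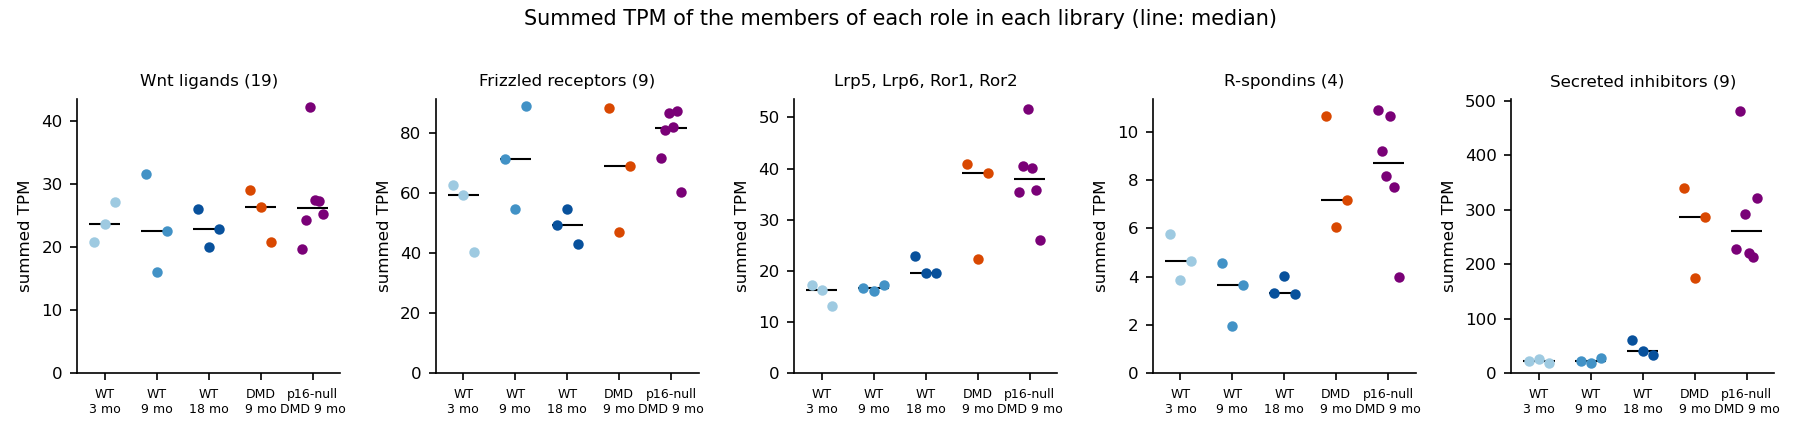
Summed TPM of the members of each role (y axis, linear, starting at 0) in each of the 18 libraries (points), grouped by genotype and age on the x axis, with the group median as a line. The inhibitor totals of DMD (175 to 339 TPM) and p16-null DMD (213 to 480 TPM) lie above all WT libraries, whereas the ligand totals of the 5 groups overlap.

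DMD against WT muscle at 9 months addresses how the dystrophic muscle differs. Of the 46 members 32 had enough counts to be tested, and 12 passed, 8 higher and 4 lower in DMD. The secreted inhibitors Sfrp1, Sfrp2, Sfrp4, Dkk3 and Frzb, the receptors Ror2 and Fzd2 and the ligand Wnt10b rose, while the receptors Fzd7 and Fzd4 and the ligands Wnt9a and Wnt4 fell. Dystrophic muscle differs from WT in a large part of its transcriptome: 48.3% of all genes tested passed, 26.4% higher and 21.8% lower. The members' share of 37.5% is below that background, with 25.0% higher and 12.5% lower, so members did not pass more often than genes at large. The median log2 fold change was 0.15 over the members and 0.11 over all genes.

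p16-null DMD against WT at 9 months uses the same WT libraries and gave 10 of 32 members that passed (31.2%), 7 higher and 3 lower, where 50.2% of all genes passed (27.5% higher, 22.7% lower). The contrast between p16-null DMD and DMD compares dystrophic groups that differ in the p16-null label. None of the 32 members passed edgeR's test there (adjusted p = 0.939 to 0.995), none had an unadjusted p under 0.05, and DESeq2 called none. Over all genes 1 of 14801 passed (0.00676%), 13 by DESeq2, and 85 by edgeR without DMD replicate 1, none of them members.

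Age in WT muscle, 18 against 3 months, gave 8 of 29 tested members that passed (27.6%), 4 higher (Sfrp2, Sfrp1, Fzd2 and Fzd3) and 4 lower (Fzd7, Wnt5a, Fzd9 and Fzd4). Here 19.4% of all genes passed, 9.31% higher and 10.1% lower. The members' shares of 13.8% in each direction stand beside those values and rest on few genes. The median log2 fold change was -0.26 over the members and 0.0032 over all genes. Values with DMD and with p16-null DMD are given side by side below because both comparisons share the WT libraries and are not independent of each other.

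**Figure D2:**
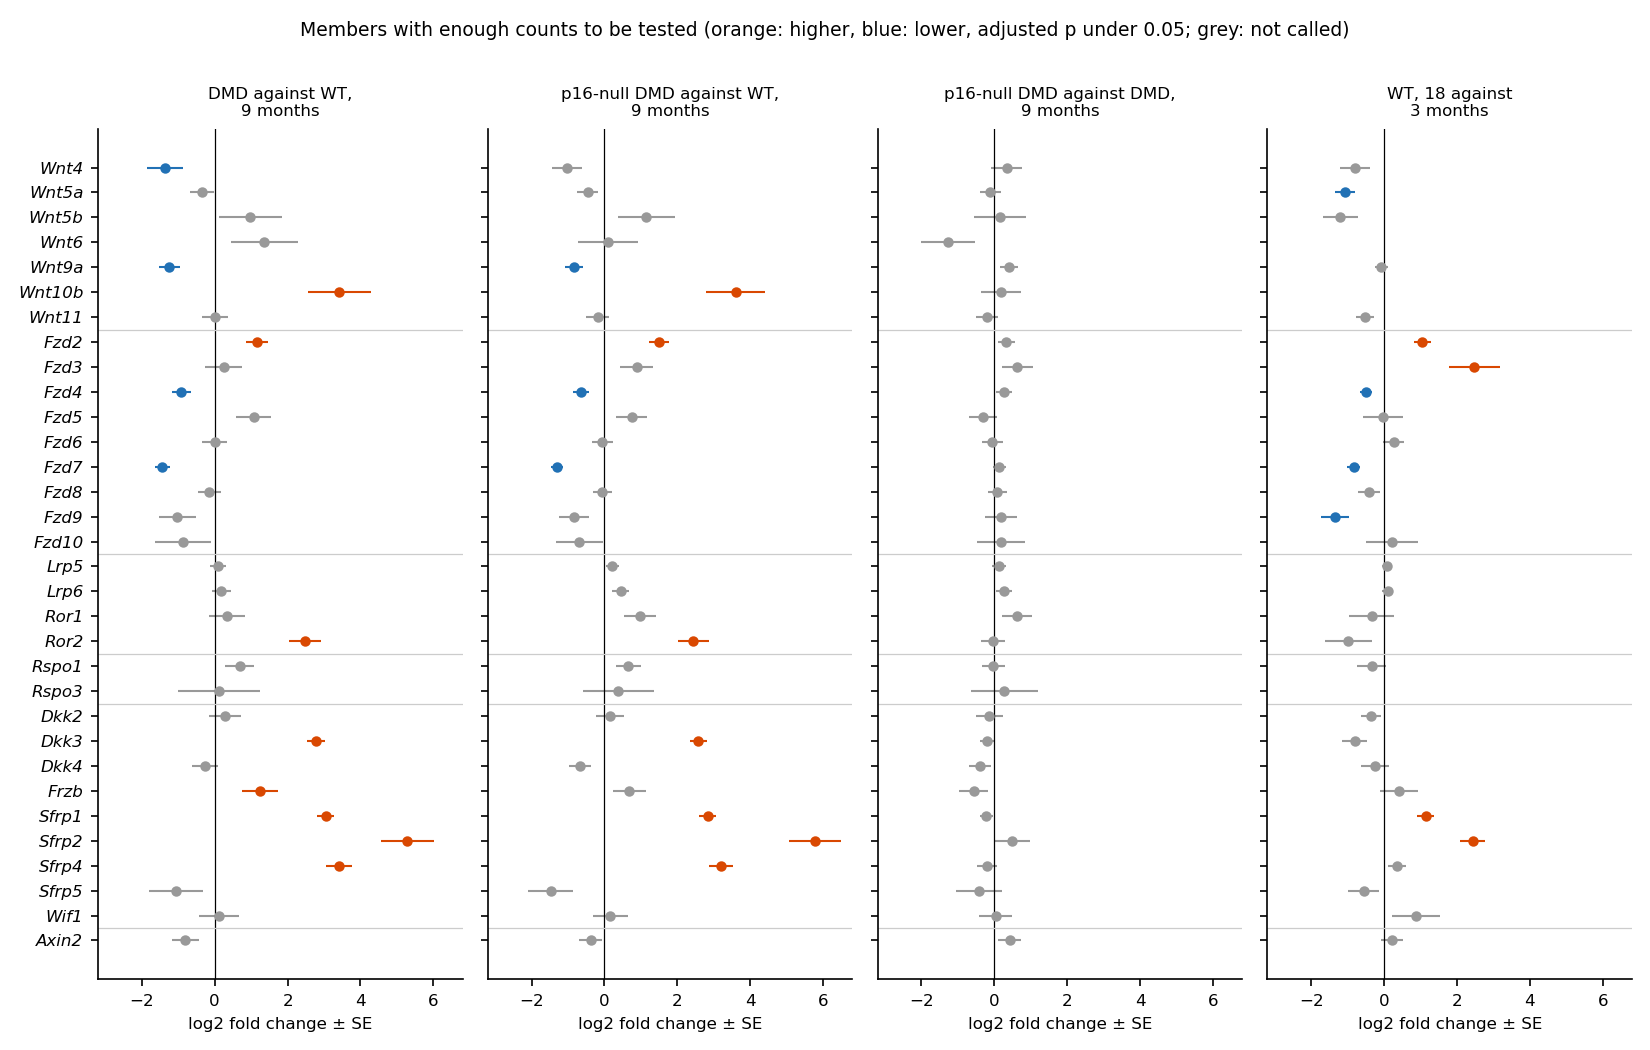
Log2 fold change with its SE (x axis) of each tested member (y axis, ordered by role) in the 4 comparisons. Orange marks members higher and blue members lower at an adjusted p under 0.05. The inhibitors Sfrp1, Sfrp2, Sfrp4 and Dkk3 stand at 2.57 to 5.77 in both comparisons with WT at 9 months, and no member passed between p16-null DMD and DMD.

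Among the 19 ligands, 7 had enough counts for the 9-month test and 5 for the age test. Wnt9a was the most abundant ligand in every group by mean TPM. It stood at 34.5, 24.7 and 31.1 CPM in the WT libraries of 9 months, 11.8, 15.2 and 11.4 CPM in DMD, and from 9.43 to 25.2 CPM (median 16.5) in the 6 p16-null DMD libraries. The WT and DMD libraries did not overlap, and 1 p16-null DMD library lay inside the WT range. Wnt9a fell by 1.24 ± 0.29 in DMD (adjusted p = 0.00252, edgeR). In p16-null muscle it fell by 0.83 ± 0.24 (adjusted p = 0.00934). With library totals in place of TMM the same differences were -0.60 (adjusted p = 0.0760) and -0.23 (adjusted p = 0.419), and without WT replicate 1 the second was -0.73 (adjusted p = 0.0517). At 3 and 18 months Wnt9a held 26.5 ± 3.45 and 25.0 ± 5.34 CPM (SD, n = 3), with a difference of -0.08 ± 0.17 (adjusted p = 0.794).

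Wnt4, a ligand that muscle fibres supply to neighbouring satellite cells, fell in DMD from 5.92 ± 2.92 to 2.32 ± 1.23 CPM (SD, n = 3 each), by 1.35 ± 0.50 on the log2 scale (adjusted p = 0.0347, edgeR). In p16-null DMD it stood at 2.95 ± 1.11 CPM (n = 6), a difference of -1.02 ± 0.41 that just missed the threshold (adjusted p = 0.0510, edgeR). It passed under 11 of 23 alternatives, DESeq2 among them (-1.05, adjusted p = 0.0301). The call for DMD rests on single libraries: leaving out WT replicate 1, DMD replicate 1 or DMD replicate 3 gave -0.88, -1.37 and -1.01 (adjusted p = 0.201, 0.0696 and 0.129), and library totals gave -0.72 (adjusted p = 0.194).

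Wnt10b, which in mice restrains the adipogenic fate of muscle precursors, was almost silent in WT muscle of 9 months. The 3 WT libraries held 0.174, 0 and 0.0914 CPM, the DMD libraries 1.34, 1.24 and 0.835 CPM, and the p16-null DMD libraries 0.500 to 2.45 CPM (median 1.27). All dystrophic libraries lay above all WT libraries of that age. The groups held 3 (WT), 55 (DMD) and 132 (p16-null DMD) counts, so the ratio to WT was 11.3 for DMD (95% counting interval 3.69 to 56.7). For p16-null DMD it was 13.9 (4.66 to 68.4). Both rises passed the edgeR test (adjusted p = 0.00465 and 0.00198, in that order). The WT libraries of 3 months held 0.265, 0 and 0.754 CPM and those of 18 months 1.36, 0.199 and 0.429 CPM. So 1 library of 18 months lay just above all DMD libraries and inside the p16-null range, and 1 of 3 months lay inside the p16-null range.

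Wnt5a, the best known ligand of the beta-catenin-independent arm, fell with age. It held 11.4, 12.7 and 12.1 CPM at 3 months and 7.86, 3.39 and 5.92 CPM at 18 months, without overlap, and fell by 1.06 ± 0.27 (adjusted p = 0.0137, edgeR). At 9 months it stood at 8.79 ± 3.24 CPM in WT (SD, n = 3), 6.94 ± 1.75 CPM in DMD and 6.42 ± 1.71 CPM in p16-null DMD (n = 6), and neither difference from WT passed (adjusted p = 0.411 and 0.193). The fall with age was not called on log2(TPM + 1), where it was -0.50 (adjusted p = 0.110). Its relative Wnt5b stood at 1.54 ± 0.567 CPM in WT, 3.10 ± 2.299 CPM in DMD and 3.41 ± 3.04 CPM in p16-null muscle at 9 months, spread from 0.332 to 8.60 CPM over the p16-null libraries, and passed no test.

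Wnt11 and Wnt6 passed no test: Wnt11 held 5.73 to 9.57 CPM as group means, and Wnt6 0.558 to 1.80 CPM. The other 12 ligands had too few counts for the 9-month test. Wnt7a and Wnt8a had 0 counts in all 18 libraries, and Wnt3a and Wnt8b had 1 count in all. A count of 0 allows up to 0.131 to 0.403 CPM in these libraries (3 counts in the library), by counting error only. Wnt3 and Wnt1 had 6 and 7 counts over the 18 libraries, Wnt2, Wnt16, Wnt9b and Wnt7b had 21 to 44, and Wnt10a and Wnt2b had 83 and 100. Wnt7a, a ligand known from work on muscle regeneration, was thus not detectable at this depth in any group.

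Of the 9 Frizzled receptors, 3 passed in DMD against WT and 5 with age, where 48.3% and 19.4% of all genes passed. Fzd7, the receptor through which Wnt7a acts on satellite cells, showed the clearest fall. It stood at 101, 80.3 and 79.97 CPM in WT of 9 months, 39.8, 25.7 and 31.4 CPM in DMD, and 28.5 to 43.2 CPM (median 35.3) in p16-null DMD. Every dystrophic library lay well below every WT library of that age. Fzd7 fell by 1.43 ± 0.20 in DMD (adjusted p = 4.35e-05, edgeR) and by 1.29 ± 0.16 in p16-null muscle (adjusted p = 1.61e-05). Library totals left falls of -0.78 (adjusted p = 0.00372) and -0.68 (adjusted p = 0.00268), so the size of the fall depends on the scaling.

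In aging WT muscle Fzd7 went the same way. It held 75.6, 96.6 and 56.0 CPM at 3 months and 41.6, 42.5 and 43.3 CPM at 18 months, without overlap. The fall of 0.84 ± 0.17 passed (adjusted p = 0.00314, edgeR), but on log2(TPM + 1) it was -0.41 (adjusted p = 0.194).

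Fzd4 was the most abundant Frizzled in all 5 groups in TPM. It stood at 128, 95.4 and 175 CPM in WT of 9 months, 91.5, 48.2 and 72.3 CPM in DMD, and 62.8 to 101 CPM (median 83.6) in p16-null DMD. WT and DMD libraries did not overlap, though WT replicate 2 and DMD replicate 1 lay close together. Fzd4 fell by 0.91 ± 0.25 in DMD (adjusted p = 0.00732, edgeR) and by 0.65 ± 0.21 in p16-null muscle (adjusted p = 0.0185). Library totals gave -0.27 (adjusted p = 0.379) and -0.05 (adjusted p = 0.848), and log2(TPM + 1) gave a difference of opposite sign for p16-null DMD, 0.13 (adjusted p = 0.638). Without WT replicate 3 the p16-null DMD difference was -0.40 (adjusted p = 0.169).

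With age, Fzd4 went from 98.2, 88.3 and 83.8 CPM to 54.8, 82.2 and 52.8 CPM, groups that just failed to overlap. The fall of 0.51 ± 0.16 (adjusted p = 0.0440, edgeR) lost its call when 3-month replicate 1 or 2 or 18-month replicate 1 or 3 was left out, with adjusted p = 0.121, 0.0856, 0.189 and 0.179. It was not called by library totals (-0.28, adjusted p = 0.265), on log2(TPM + 1) (-0.16, adjusted p = 0.554) or in 1 fit of all 18 libraries (-0.51, adjusted p = 0.186).

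Fzd2, a receptor of Wnt5a among others, rose in all 3 comparisons with younger or healthy muscle. WT libraries of 9 months held 7.72, 5.37 and 6.85 CPM, DMD 16.7, 15.99 and 12.4 CPM, and p16-null DMD 13.2 to 31.7 CPM (median 16.4). The lowest dystrophic library was above the highest WT library of that age. The rise was 1.16 ± 0.29 in DMD (adjusted p = 0.00433, edgeR) and 1.496 ± 0.27 in p16-null muscle (adjusted p = 0.000306). WT muscle of 3 months held 7.70, 4.86 and 5.66 CPM and of 18 months 13.0, 13.2 and 11.6 CPM, a rise of 1.05 ± 0.23 (adjusted p = 0.00565). Fzd2 was called higher under each alternative tried in these 3 comparisons.

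Fzd3, a receptor of the planar polarity arm, was low at 3 months with 0.0885, 0.291 and 0.377 CPM and stood at 1.81, 1.296 and 1.2003 CPM at 18 months. The groups did not overlap and the rise of 2.48 ± 0.69 passed (adjusted p = 0.0215, edgeR), from 8 counts to 47. It lost its call when any library other than 3-month replicate 3 was left out (log2 fold change 2.07 to 2.60, adjusted p = 0.0561 to 0.114). Fzd9 went from 7.34, 6.22 and 4.997 CPM to 2.26, 1.296 and 3.69 CPM, a fall of 1.34 ± 0.39 (adjusted p = 0.0255). Without 3-month replicate 1 or 2 or 18-month replicate 1 or 2 the difference of Fzd9 was -1.34 to -1.05 (adjusted p = 0.0595 to 0.0926). It was not called by library totals (-1.12, adjusted p = 0.0516) or in 1 fit of all 18 libraries (-1.35, adjusted p = 0.0714). By limma it was not called on log2(TPM + 1) (-0.72, adjusted p = 0.0580) or log2(TPM + 0.1) (-1.05, adjusted p = 0.0686). At 9 months Fzd9 stood at 4.77, 4.97 and 3.11 CPM in WT, 3.95, 1.40 and 0.963 CPM in DMD, and 1.71 to 3.54 CPM in p16-null DMD. Neither difference from WT passed (-1.02 and -0.84, adjusted p = 0.105 and 0.110, edgeR). Without DMD replicate 1 the DMD difference of Fzd9 passed at -1.86 (adjusted p = 0.00579). Fzd5, Fzd6, Fzd8 and Fzd10 passed in no comparison by TMM with all libraries. Fzd5 lay higher in all 3 DMD than in all 3 WT libraries (2.28 ± 0.0653 against 1.06 ± 0.661 CPM, SD, n = 3), with an adjusted p of 0.0743 by edgeR. It passed without WT replicate 3 (1.72, adjusted p = 0.0136) and by library totals (1.69, adjusted p = 0.00718). In p16-null muscle against WT, Fzd5 also passed under these settings (1.40 and 1.32, adjusted p = 0.0267 and 0.0159), and Fzd10 passed without p16-null DMD replicate 3 (-1.40, adjusted p = 0.0406).

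**Figure D3:**
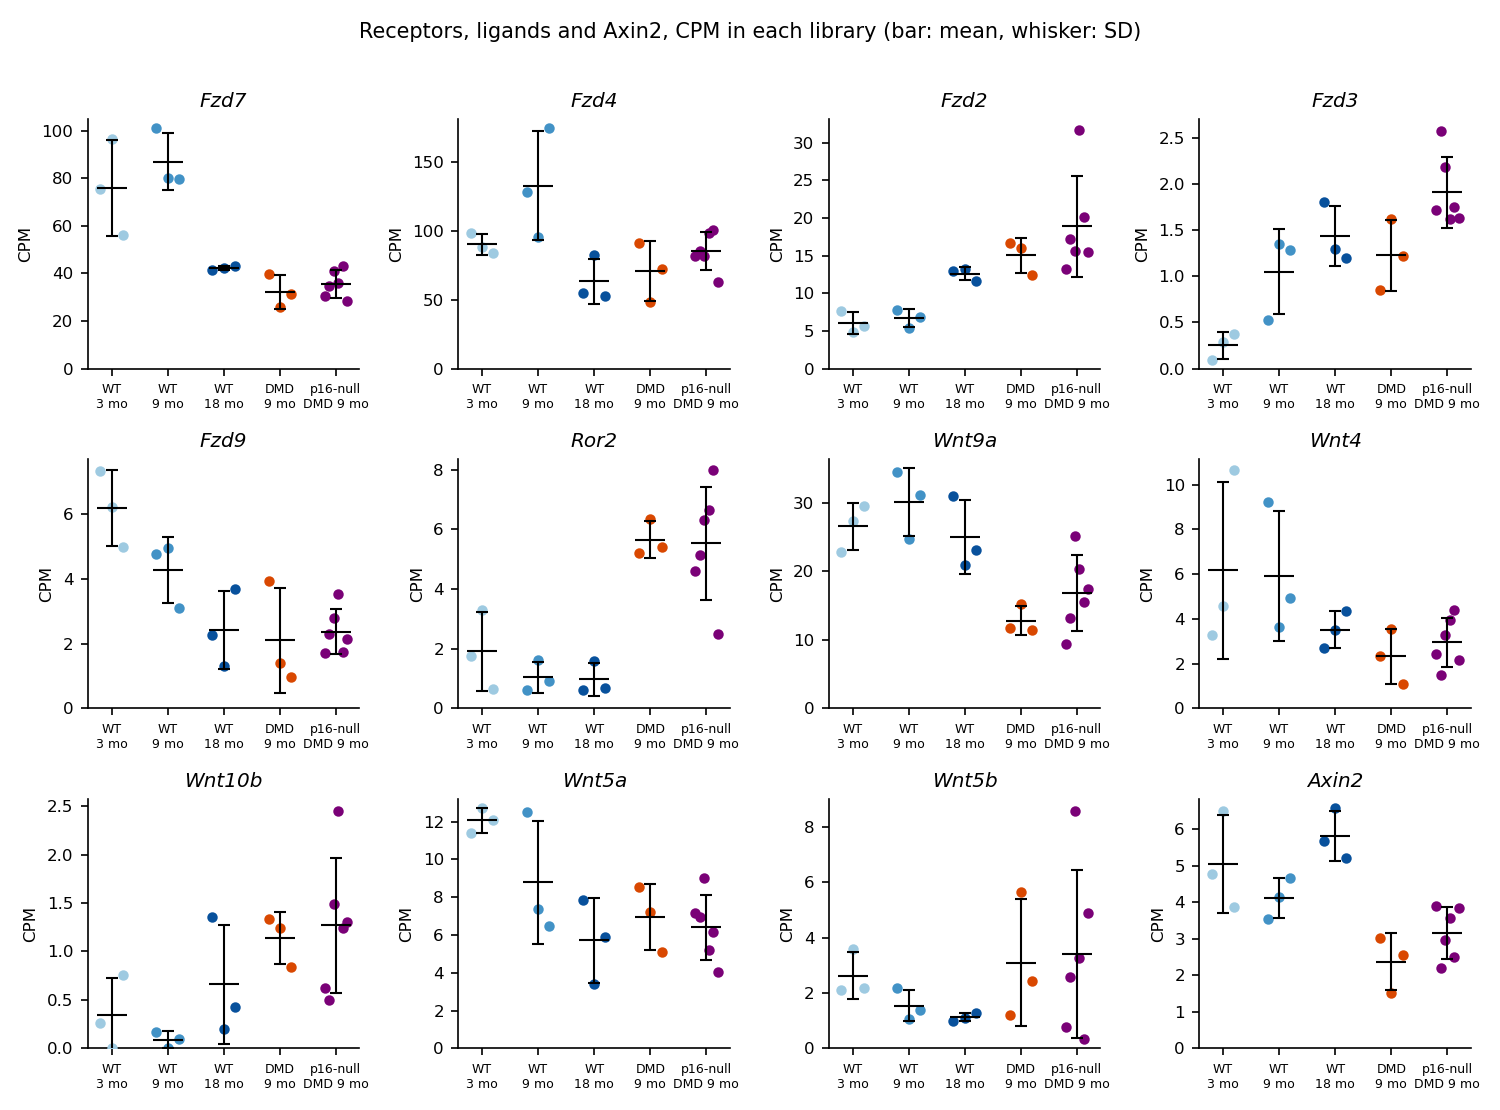
CPM (y axis, linear, starting at 0) of 12 receptors, ligands and Axin2 in each library (points), with the group mean (bar) and SD (whisker), for the 5 groups on the x axis. Fzd7 lies at 80.0 to 101 CPM in WT of 9 months and at 25.7 to 43.2 CPM in all dystrophic libraries, whereas Fzd2 and Ror2 lie higher in the dystrophic libraries than in WT of the same age.

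Among the co-receptors and Ror kinases, Ror2 alone passed at 9 months. Ror2 encodes a receptor tyrosine kinase-like protein that binds Wnt5a. It stood at 0.608, 1.61 and 0.914 CPM in WT, 5.22, 6.35 and 5.39 CPM in DMD, and 2.48 to 7.97 CPM (median 5.73) in p16-null DMD. Neither dystrophic group overlapped WT. The rise was 2.47 ± 0.45 in DMD (adjusted p = 0.000376, edgeR) and 2.44 ± 0.42 in p16-null muscle (adjusted p = 0.000205). At 3 and 18 months it held 1.91 ± 1.33 and 0.971 ± 0.541 CPM (SD, n = 3), a difference of -0.98 ± 0.65 (adjusted p = 0.330).

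Lrp5 and Lrp6, the co-receptors that carry the signal to beta-catenin, showed small differences by TMM: 0.08 ± 0.21 and 0.19 ± 0.27 in DMD (adjusted p = 0.775 and 0.590, edgeR) and 0.22 ± 0.19 and 0.45 ± 0.23 in p16-null DMD. With library totals both were called higher in DMD (0.74 and 0.85, adjusted p = 0.00722 and 0.0181). Ror1 stood at 1.79 ± 1.02 CPM in WT, 2.24 ± 0.649 CPM in DMD and 3.48 ± 1.02 CPM in p16-null muscle and passed no test by TMM.

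R-spondins strengthen Wnt signalling by drawing the ubiquitin ligases Rnf43 and Znrf3 away from Frizzled. Rspo1 was the only R-spondin above 5 CPM in any group mean. It lay at 3.51 ± 1.03 CPM in WT and 5.70 ± 0.644 CPM in DMD (SD, n = 3), higher in all 3 DMD libraries, with a difference of 0.68 ± 0.39 that did not pass (adjusted p = 0.158, edgeR). Library totals made it 1.33 (adjusted p = 0.00679). Rspo3 had 148 counts over all libraries and passed no test. Rspo2 and Rspo4 were too low to be tested. Rspo2 had 0 counts in the 3 WT libraries of 9 months, 14 in the DMD group and 34 in the p16-null group, at least 2.89-fold and 3.59-fold higher against a floor of 3 counts over the WT group. These bounds pool libraries: the p16-null libraries held 5, 8, 1, 10, 10 and 0 counts of Rspo2, so 1 of them was at 0 like WT. Rspo4 had 6, 1 and 15 counts in those groups. All 6 lay in WT replicate 3, and 11 of the 15 in p16-null DMD replicate 4.

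All 9 secreted inhibitors were tested, and 5 rose in DMD, 4 in p16-null DMD and 2 with age, while none fell. Of all genes, 26.4%, 27.5% and 9.31% were higher in these comparisons and 21.8%, 22.7% and 10.1% lower. Sfrp2, which is secreted by connective tissue cells and binds Wnts through a Frizzled-like domain, had the largest difference of the tested members in both comparisons with WT at 9 months. WT libraries of 9 months held 4.08, 1.34 and 2.28 CPM, DMD 168, 56.7 and 86.2 CPM, and p16-null DMD 45.7 to 303 CPM (median 126). Even the lowest dystrophic library stood far above the highest WT library of that age. Sfrp2 rose by 5.29 ± 0.73 in DMD, 39.0-fold (adjusted p = 4.35e-05, edgeR), and by 5.77 ± 0.72 in p16-null muscle, 54.6-fold (adjusted p = 1.46e-05).

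Age moved Sfrp2 as well. It stood at 3.10, 3.21 and 4.15 CPM at 3 months and at 31.4, 11.96 and 12.7 CPM at 18 months, where 1 library was well above the other pair. The rise of 2.43 ± 0.35, 5.37-fold, had the smallest adjusted p of the members in that comparison (0.000249, edgeR). Old WT libraries remained below every dystrophic library of 9 months in CPM.

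Sfrp1 was more even between libraries. It held 10.6, 9.93 and 17.5 CPM in WT of 9 months, 120.4, 86.1 and 109.8 CPM in DMD, and 72.6 to 117 CPM (median 90.1) in p16-null DMD, with a wide gap between WT and dystrophic libraries. The rise was 3.04 ± 0.24, 8.25-fold, in DMD (adjusted p = 1.48e-06, edgeR) and 2.83 ± 0.23, 7.11-fold, in p16-null muscle (adjusted p = 5.30e-07), the smallest adjusted p of any member in both. WT muscle went from 8.76, 10.6 and 5.75 CPM at 3 months to 16.6, 21.9 and 17.0 CPM at 18 months, a rise of 1.15 ± 0.23 (adjusted p = 0.00294).

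Sfrp4 stood at 8.77, 6.04 and 14.1 CPM in WT of 9 months, 86.1, 95.1 and 130.5 CPM in DMD, and 57.4 to 142 CPM (median 77.9) in p16-null DMD. All dystrophic libraries were above all WT libraries, and the rise was 3.41 ± 0.35 in DMD (adjusted p = 4.71e-06, edgeR) and 3.20 ± 0.33 in p16-null muscle (adjusted p = 3.05e-06). Unlike Sfrp1 and Sfrp2, Sfrp4 did not pass with age: it held 14.5 ± 4.18 CPM at 3 months and 18.6 ± 5.33 CPM at 18 months (SD, n = 3), a difference of 0.35 ± 0.25 (adjusted p = 0.368). Whether the age effect differs between these genes was not tested.

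Dkk3 is a divergent member of the Dickkopf family, counted here with the inhibitors though it is not an established Lrp5 or Lrp6 blocker. It was tight within the WT and DMD groups of 9 months, but less so in p16-null DMD. It stood at 3.73, 4.43 and 4.20 CPM in WT of 9 months, 27.6, 30.7 and 26.9 CPM in DMD, and 16.7 to 31.0 CPM (median 24.5) in p16-null DMD. The groups were far apart, with a rise of 2.78 ± 0.25 in DMD (adjusted p = 2.29e-06, edgeR) and 2.57 ± 0.24 in p16-null muscle (adjusted p = 1.34e-06). With age the difference was -0.81 ± 0.34 (adjusted p = 0.119), and without 3-month replicate 3 it passed at -1.07 (adjusted p = 0.0380).

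Frzb, also named Sfrp3, rose from 2.68 ± 0.738 to 6.41 ± 2.35 CPM in DMD (SD, n = 3 each), by 1.25 ± 0.49 with an adjusted p of 0.0480 by edgeR, at the edge of the threshold. It lost the call without any 1 of the 3 WT libraries, without DMD replicate 2 or 3, and without p16-null DMD replicate 5 or 6, with adjusted p from 0.0519 to 0.161. In p16-null DMD it stood at 4.28 ± 2.29 CPM (n = 6) and did not pass (0.69 ± 0.44, adjusted p = 0.213).

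Sfrp5, the family member best known from fat tissue, did not join its relatives. It held 6.94, 8.05 and 8.04 CPM in WT of 9 months, 9.24, 0.861 and 0.963 CPM in DMD, and 1.05 to 5.22 CPM (median 2.45) in p16-null DMD. DMD replicate 1 stood apart from the other pair, and all p16-null DMD libraries were below WT. Neither difference passed (-1.05 ± 0.74, adjusted p = 0.256, and -1.48 ± 0.62, adjusted p = 0.0583, edgeR), but without DMD replicate 1 the DMD difference was -3.09 (adjusted p = 0.000974) and the p16-null DMD difference, whose error comes from the same fit, -1.48 (adjusted p = 0.00594). With DESeq2 the p16-null difference of Sfrp5 was -1.52 (adjusted p = 0.0283). Dkk2, Dkk4 and Wif1 passed no test with all libraries, with group means of 6.05 to 7.78, 2.80 to 4.92 and 1.20 to 2.20 CPM. Without p16-null DMD replicate 6, Dkk4 passed as lower in p16-null DMD against WT (-0.78, adjusted p = 0.0490, edgeR).

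**Figure D4:**
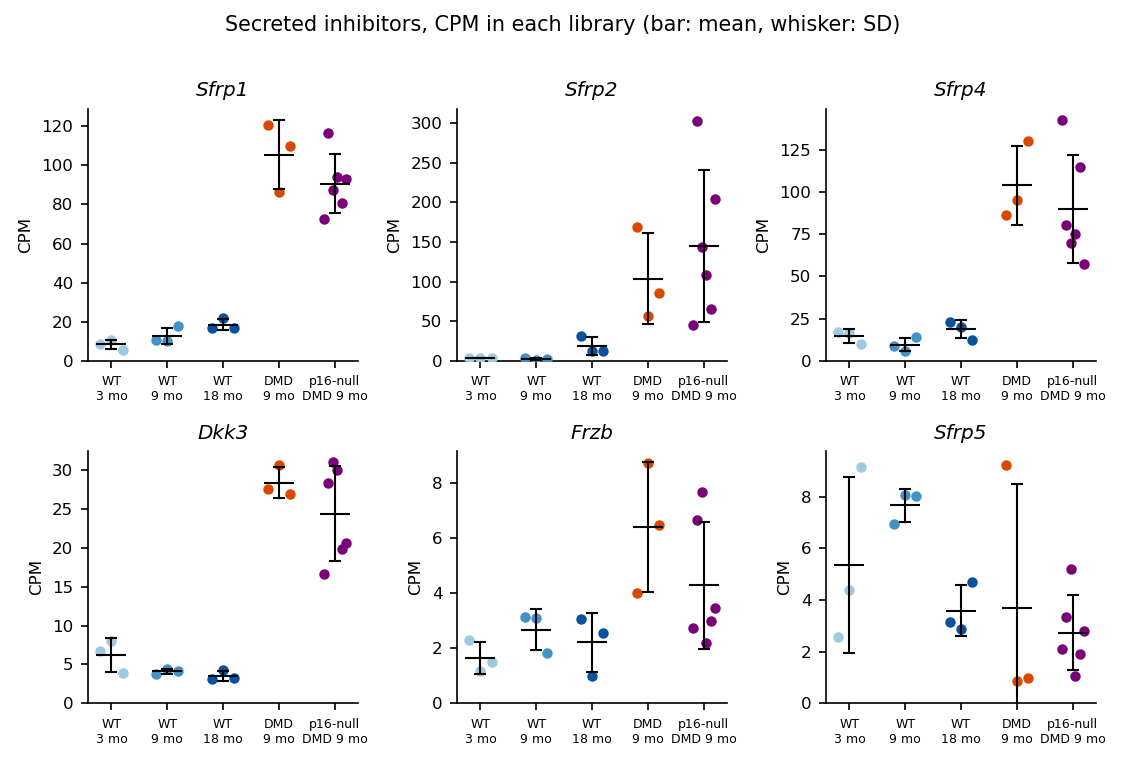
CPM (y axis, linear, starting at 0) of 6 secreted inhibitors in each library (points), with group mean (bar) and SD (whisker), for the 5 groups on the x axis. Sfrp1, Sfrp2, Sfrp4 and Dkk3 lie higher in every dystrophic library than in any WT library of 9 months, whereas Sfrp5 lies lower in all p16-null DMD libraries and spreads from 0.861 to 9.24 CPM in DMD.

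Axin2, a scaffold of the beta-catenin destruction complex whose own transcription is raised by beta-catenin, showed no rise in dystrophic muscle. It stood at 3.56, 4.16 and 4.66 CPM in WT of 9 months, 3.03, 1.51 and 2.57 CPM in DMD, and 2.22 to 3.90 CPM (median 3.28) in p16-null DMD. All DMD libraries lay below all WT libraries, yet the difference of -0.81 ± 0.37 did not pass (adjusted p = 0.0820, edgeR). It passed with DESeq2 (-0.85, adjusted p = 0.0445) and in 1 fit of all 18 libraries (-0.81, adjusted p = 0.0474), and with log2(TPM + 1) it was -0.04. The p16-null DMD difference was -0.38 ± 0.31 (adjusted p = 0.327), and 0.22 with library totals, the opposite sign. WT muscle held 4.78, 6.51 and 3.87 CPM at 3 months and 5.69, 6.58 and 5.23 CPM at 18 months, overlapping ranges with a difference of 0.21 ± 0.30 (adjusted p = 0.675). This is the promoter printed above with 2 motif matches.

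No member passed the test between p16-null DMD and DMD, also without DMD replicate 1, where 3 members had an unadjusted p under 0.05. The smallest unadjusted p belonged to Wnt6, with 0.743 ± 0.415 CPM in p16-null DMD (n = 6) and 1.80 ± 2.05 CPM in DMD (SD, n = 3), a difference of -1.26 ± 0.74 (adjusted p = 0.939, edgeR). DMD replicate 1 held 4.16 CPM and the other pair 0.646 and 0.578 CPM, and without it the difference had the opposite sign (0.305, adjusted p = 0.967). Among the large movers the differences were 0.48 ± 0.50 for Sfrp2, -0.21 ± 0.19 for Sfrp1, -0.20 ± 0.27 for Sfrp4, 0.33 ± 0.24 for Fzd2 and 0.14 ± 0.17 for Fzd7. For Fzd3 all 6 p16-null DMD libraries were above the highest DMD library, but only just, with nearest libraries at 1.618 and 1.615 CPM. Its difference was 0.64 ± 0.42 (adjusted p = 0.954, edgeR). With SEs of this size, differences of a given member cannot be told from 0 here, which does not show that the groups are alike.

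The scaling of the libraries bears on all falls in dystrophic muscle and on the falls with age. With library totals in place of TMM, the median log2 fold change of all genes moved from 0.11 to 0.76 in DMD against WT, and from 0.00 to 0.24 with age. The share of passing genes that were higher moved from 54.8% to 86.1% in DMD and from 47.9% to 80.0% with age. By library totals 13 members passed in DMD against WT, 12 higher and 1 lower, the one being Fzd7, and 15 in p16-null DMD against WT, 14 higher and 1 lower. Set against the shifted median, Fzd4, Wnt9a and Wnt4 stayed below it (-0.27, -0.60 and -0.72), and Lrp5 (0.74) lay at it. Sfrp1, Sfrp2, Sfrp4, Dkk3, Ror2, Fzd2 and Wnt10b were called higher in both comparisons with WT at 9 months under every scaling tried.

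**Figure D5:**
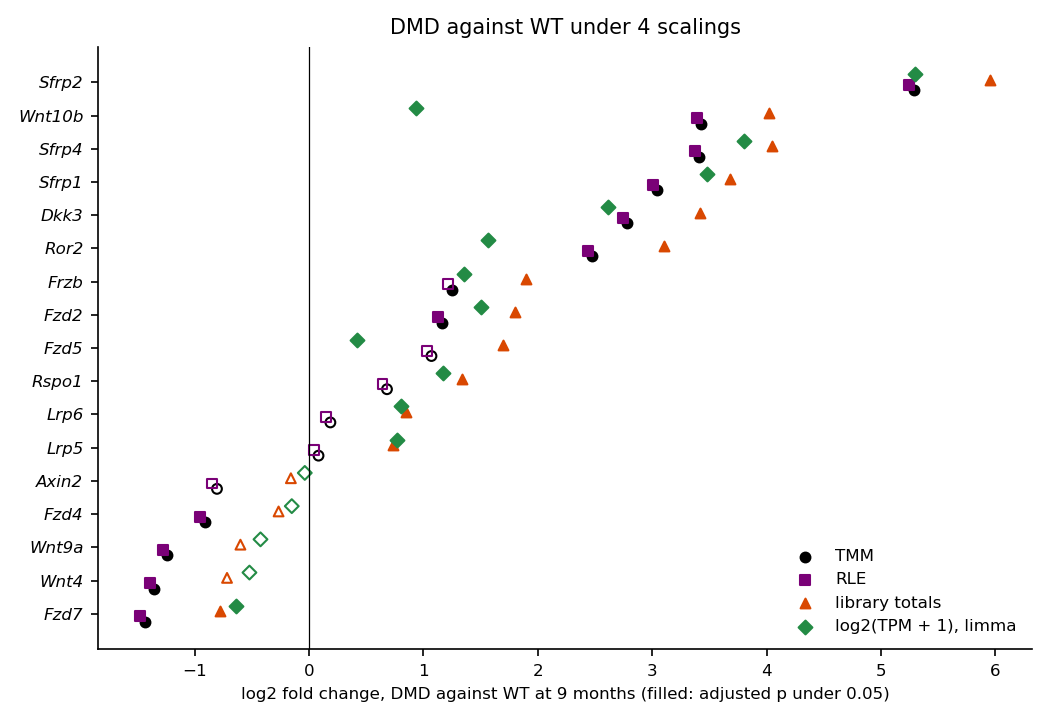
Log2 fold change in DMD against WT at 9 months (x axis) of the 12 members that passed and of Axin2, Fzd5, Rspo1, Lrp5 and Lrp6 (y axis) under 4 scalings (marker shapes); filled markers have an adjusted p under 0.05. Rises of the inhibitors stay filled in all 4 except Frzb under RLE, whereas Fzd4, Wnt9a and Wnt4 are open with library totals and log2(TPM + 1).

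Markers of several cell types moved with the same groups, beside 26.4% of all genes higher and 21.8% lower in DMD. Of 12 muscle fibre markers 11 fell in DMD, with summed levels of 151440 to 167290 CPM in WT and 42696 to 68446 CPM in DMD. Of 11 markers of fibroblasts and fibro-adipogenic progenitors, connective tissue cells that make matrix, 9 rose and none fell (3818 to 3908 CPM in WT, 11252 to 15490 CPM in DMD, 11472 to 18280 CPM in p16-null DMD). All 11 macrophage markers rose (407 to 468 and 2436 to 3923 CPM), as did 6 of 7 adipocyte markers (305 to 351 and 1538 to 1610 CPM), 6 of 6 markers of regenerating fibres (82.2 to 122 and 707 to 1229 CPM) and 3 of 7 tenocyte markers (200.4 to 463 and 581 to 1175 CPM). None of these 6 lists had a marker at 0 in a whole group. In the other lists, DMD had 2 satellite cell markers higher and 2 lower of 8, and 2 endothelial markers lower of 8. Smooth muscle and pericyte markers had 2 of 8 higher and Schwann cell markers 2 of 7, with none lower. Of tested markers, 3 of 4 for lymphocytes and 1 of 3 for bone and cartilage were higher. In p16-null DMD against WT the counts were 11 of 12 fibre markers lower, and 9 of 11 fibroblast, 11 of 11 macrophage and 6 of 7 adipocyte markers higher. Also higher were 6 of 6 regenerating fibre, 3 of 7 tenocyte, 2 of 8 smooth muscle, 2 of 7 Schwann cell and 2 of 4 tested lymphocyte markers. Satellite cell markers had 4 higher and 1 lower of 8, and endothelial markers 2 higher and 2 lower of 8. No bone and cartilage marker passed there. Over all genes 27.5% were higher and 22.7% lower. The part of these cells in the rises of Sfrp1, Sfrp2, Sfrp4, Dkk3 and Ror2 and in the falls of Fzd7, Fzd4, Wnt9a and Wnt4 was not tested. In bulk tissue, fewer cells of a type and less RNA per cell cannot be told apart.

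With age, the fibroblast list had 2 markers higher and 3 lower of 11 (5007 to 9411 CPM at 3 months, 3883 to 4415 CPM at 18 months), beside the rises of Sfrp1 and Sfrp2. Fibre markers fell in 7 of 12 cases (143340 to 170820 and 89036 to 103090 CPM), 10 of 11 macrophage markers rose (394 to 590 and 675 to 990 CPM), and 5 of 8 satellite cell markers rose (63.8 to 82.5 and 457 to 512 CPM). All 6 markers of regenerating fibres rose (96.8 to 115 and 442 to 541 CPM). Of 7 tenocyte markers 1 rose and 4 fell (172 to 739 and 117 to 231 CPM). Endothelial markers had 1 higher and 2 lower of 8, and Schwann cell markers 2 lower of 7. Smooth muscle markers had 1 of 8 higher, adipocyte markers 1 of 7 and lymphocyte markers 2 of 2 tested. No bone and cartilage marker passed. Over all genes 9.31% were higher and 10.1% lower. The part of these cells in the differences of members was not tested either. Between p16-null DMD and DMD no marker of any list passed.

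Other genes of the pathway were taken from 6 lists. Their counts in DMD against WT stand beside 26.4% of all genes higher and 21.8% lower. Of 5 tested genes for Wnt secretion and release 1 passed in DMD, Trabd2b, a membrane protease that inactivates Wnts, which rose from 1.58 to 4.41 mean CPM by 1.52 ± 0.45 (adjusted p = 0.0114, edgeR), a call lost without WT replicate 1. Among 18 co-receptors and regulators of receptor turnover 5 rose and 3 fell (median log2 fold change -0.22). They were led by Ptk7, a pseudokinase of the polarity arm (2.20 ± 0.26), Draxin, a secreted guidance protein (4.39 ± 0.71), and Ryk, a Wnt receptor, which fell by 0.91 ± 0.15. In the destruction complex list 4 rose and 6 fell of 23 (median -0.13). Its first 3 were Tnks2, a tankyrase that marks Axin for degradation (-1.41 ± 0.19), Gsk3a, a kinase that phosphorylates beta-catenin (-0.72 ± 0.14), and Ctnnbip1, which keeps beta-catenin from TCF factors (1.03 ± 0.22).

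Among 18 TCF/LEF factors and cofactors 5 rose and 4 fell (median 0.08), first the co-repressors Tle3 (1.90 ± 0.23) and Tle5 (-1.22 ± 0.19) and the factor Tcf7l2 (1.22 ± 0.25). Of 21 genes listed as beta-catenin targets 12 rose and 2 fell (median 1.52), where 26.4% of all genes were higher and 21.8% lower. The first 3 were Ccn5 (3.85 ± 0.38), Ccn4 (2.77 ± 0.29), both matricellular proteins of connective tissue, and Twist1 (2.46 ± 0.28), a transcription factor of mesenchymal cells. Fibroblast markers rose in the same libraries, and their part in these rises was not tested. In the planar polarity and calcium list 5 rose and 10 fell of 26 (median -0.33), first the calcium-dependent kinase Camk2g (-1.20 ± 0.16), the protein kinase C gene Prkca (-1.77 ± 0.26) and the calcineurin subunit Ppp3ca (-1.21 ± 0.19).

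In p16-null DMD against WT the same lists, in the same order, had 1, 5, 3, 7, 11 and 7 genes higher and 0, 3, 6, 4, 1 and 9 lower, where 27.5% of all genes were higher and 22.7% lower. Ptk7, Rnf43 and Draxin led the receptor list at 2.34 ± 0.24, -3.34 ± 0.41 and 4.82 ± 0.68, where Rnf43 is the ligase that removes Frizzled from the membrane. Trabd2b rose by 1.37 ± 0.41. Tnks2, Gsk3a and Frat1, a Gsk3-binding protein, led the destruction complex list at -1.27 ± 0.15, -0.55 ± 0.12 and -1.69 ± 0.37. Tle5, Tle3 and Tle1 stood at -1.23 ± 0.16, 1.52 ± 0.21 and -1.13 ± 0.23, Ccn5, Ccn4 and Twist1 at 3.74 ± 0.36, 2.74 ± 0.27 and 2.54 ± 0.26, and Camk2g, Ppp3ca and Prkca at -1.09 ± 0.13, -1.12 ± 0.15 and -1.50 ± 0.21. No gene of any list passed between p16-null DMD and DMD.

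With age fewer pathway genes passed. The smallest adjusted p in these lists belonged to Musk, the receptor kinase of the neuromuscular synapse with a Frizzled-like domain, which rose from 3.45 to 64.3 mean CPM by 4.22 ± 0.215 (adjusted p = 1.56e-08, edgeR). Lrp4, its partner and the agrin receptor, rose from 15.3 to 44.9 mean CPM by 1.56 ± 0.20 (adjusted p = 8.25e-05). Draxin rose by 6.16 ± 0.59 from a mean of 0.158 CPM. These 3 and Ryk, which fell by 0.54, were the 4 of 16 tested genes of the receptor list that passed. In the other lists 1 of 5 passed for secretion (Tmed2, -0.37 ± 0.12), 2 of 23 for the destruction complex (Tnks2, -0.71 ± 0.13, and Ctnnbip1, -0.70 ± 0.21) and 1 of 17 for TCF/LEF factors (Tle5, -0.86 ± 0.15). Of 18 target genes 3 rose and 2 fell, first Myc (1.29 ± 0.21), Ccn5 (1.88 ± 0.33) and Ccn4 (-1.74 ± 0.41), so Ccn4 stood in the opposite direction to its difference in DMD. Of 26 polarity and calcium genes 3 rose and 4 fell, first Camk2a (-0.90 ± 0.12), Scrib, a polarity scaffold (0.69 ± 0.13), and the kinase Mapk9 (-0.56 ± 0.12). Counts per list are read against 19.4% of all genes, 9.31% higher and 10.1% lower, and several lists share genes.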

How the data were processed

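Values were RSEM expected counts per gene (estimated counts) and TPM, both as deposited by the authors. The tools listed, with no order, per the submitters' processing notes were RSEM 1.3.3, STAR 2.7.10b, Trimmomatic and FastQC, and the build mRatBN7.2. Per the labels' protocols, RNA from frozen tibialis anterior sections was purified with an RNeasy kit and made into TruSeq libraries at BGI. Which annotation release was used, and whether counting used strand, is not given in the sources used here, so overlapping and antisense genes cannot be separated.

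Counts were rounded (4.50% were not whole). Rows without a symbol (7162) held 3.64 to 17.6% of counts and stayed in the fits as genes. Genes were filtered with filterByExpr, scaled by TMM and tested with edgeR 4.0.16 (quasi-likelihood) in R 4.3.3: the 12 libraries of 9 months in 1 fit (14801 genes, biological coefficient of variation 0.260), WT of 3 and 18 months in another (13487 genes, 0.176). The SE is the log2 fold change divided by the square root of F. In the 9-month fit WT libraries had TMM factors of 0.687 to 0.761 and dystrophic libraries 0.998 to 1.19. CPM levels use TMM over all 18 libraries. Counting intervals are exact at 95% and, like floors of 3 counts, cover counting error only. Alternatives were DESeq2 1.42.0, RLE scaling, library totals, limma 3.58.1 on log2-transformed TPM (pseudocount 1, or 0.1), no filter, at least 5 CPM in 3 libraries, robust dispersions, leaving out the 50 genes with most counts, only the groups compared, all 18 libraries in 1 fit, a replicate block and each library left out. Steps were tested on simulated data. Replicates differed by more than counting error (chi-square per degree of freedom 12.5 to 83.7). Figures used matplotlib 3.10.9.

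Members and lists were chosen with earlier results of these data known. Each member is named. Values per library are given for members that passed, at most 8 per comparison by p, and for Axin2. The other members that passed are given by group means. Library values are also printed for Sfrp5 and, in DMD, Wnt6, where DMD replicate 1 stood apart. From each other list the text names the 3 passing genes of smallest p.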

Additional observations from a re-analysis of the deposited data

Results flagged for a closer look

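Among the 32 tested members, 2 had a p16-null DMD library far from the other 5, by the gap to its neighbour relative to the range of the group. Chance alone picks out about 1 in 20 groups, so 2 of 32 is close to that rate. Fzd2 stood at 31.7 CPM in p16-null DMD replicate 4 and at 13.2 to 20.1 CPM in the others. Dkk4 stood at 3.85 CPM in replicate 6 and at 2.23 to 2.75 CPM in the others.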

How the results depend on the processing

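Alternatives left most calls in place, but they reuse the same libraries and are not independent of each other. At 9 months some leave out only a library of a group outside the comparison. The tallies below are therefore descriptions and do not measure how sure a call is. For members that passed, 263 of the alternative results for DMD against WT kept direction and side of the threshold and 23 lost the call. For p16-null DMD against WT 231 kept both, 6 lost the call and 2 reversed, and for age 108 kept both and 26 lost the call. The reversed results were Fzd4 in p16-null DMD against WT, 0.13 with log2(TPM + 1) and 0.14 with log2(TPM + 0.1), neither past the threshold. The cause was not tested. With age, 4 members passed with log2(TPM + 1) and 4 with log2(TPM + 0.1), all of them higher. By TMM 8 passed, 4 higher and 4 lower, so no fall with age kept its call on either TPM scale. Library totals left 6 members, 4 higher and 2 lower. Leaving out each library in turn gave 10 to 13 passing members for DMD against WT, 9 to 13 for p16-null DMD against WT, 0 to 0 for p16-null DMD against DMD and 5 to 9 with age, the 5 without 3-month replicate 1 or 2 or 18-month replicate 1. The lone or paired libraries left in a group are assumed to vary like the others.

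The deviations of same-numbered libraries from their group means had correlations of -0.207 to 0.0421 at 9 months and 0.0162 to 0.108 for age. Other pairs had -0.288 to 0.395 and -0.0819 to 0.061. Groups this small do not settle whether the numbers pair samples. With the replicate number as a block, 10 members passed in DMD against WT (without Frzb, adjusted p = 0.0590, and Wnt4, adjusted p = 0.0864). In p16-null DMD 0 passed against DMD and 10 against WT, and 8 passed with age. Replicate numbers 4, 5 and 6 occur only in p16-null DMD, so under the block those libraries add nothing to the differences between groups.

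Counts in the other pathway lists moved by over 1.5 times in these cases. In the secretion list 3 genes passed in each comparison with WT at 9 months by library totals and both TPM scales, 0 in each without WT replicate 1, 2 for DMD without DMD replicate 3, and for p16-null DMD 0 without WT replicate 3 or with the block. In the destruction complex list 17 or 18 passed for p16-null DMD against WT by those 3 scalings, where 9 passed by TMM, most of them higher. With age that list had 1 to 5, TCF/LEF 3 or 4, targets 3 to 8, polarity 2 to 4 and secretion 0 passing genes under the alternatives that moved them. Among targets 2 fell in p16-null DMD against DMD without DMD replicate 1. Over all genes the age comparison called 2622, 1742 in 1 fit of all 18 libraries and 1696 without 18-month replicate 1.

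Groups of 3 limit precision, 14 members were too low to test at 9 months, and estimated counts of overlapping genes may be shared.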
